A study of Homo sapiens with 6 samples.

Results

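Open chromatin on human chromosomes 16, 17, 19 and 22 was followed in 22Rv1 cells, an established prostate cancer cell line, with ATAC-seq, in which a transposase cuts and tags accessible DNA. All libraries carry the label FOXA1_dTAG and a time of 0 h, 1 h or 24 h, with 2 libraries at each time. A dTAG, fused to a protein, lets a small molecule send that protein for degradation, and the 0 h libraries carry the same label and differ from the later ones only in the time given. The labels name neither the molecule and its dose, nor whether the tagged line is a single clone, nor whether replicates came from separate cultures, and all cells grew in RPMI 1640 medium with fetal bovine serum. The members are all peaks on the 4 chromosomes in the 6 deposited lists, joined wherever they overlapped by at least 1 bp. They formed 17629 of the 167726 regions on the autosomes and X (10.5%), namely 4816 on chromosome 16, 5463 on chromosome 17, 4612 on chromosome 19 and 2738 on chromosome 22.

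FOXA1 is a forkhead pioneer factor: it binds its motif in nucleosomal DNA, opens chromatin at distal enhancers of luminal prostate cells and helps the androgen receptor to bind there. Gene-rich chromosomes are crowded with promoters, many of them in CpG islands that stay open in most cell types without a tissue-specific pioneer factor. Such chromosomes also tend to lie in the interior of the nucleus, where active chromatin is concentrated. The label of these chromosomes was checked by counting protein-coding genes in RefSeq's GRCh38.p14 table, which gave 3925 on them, or 13.9 per Mb, against 5.85 per Mb on the other autosomes and X. By genes per Mb, chromosome 19 ranked 1, chromosome 17 ranked 2, chromosome 16 ranked 4 and chromosome 22 ranked 5 among 23 chromosomes, with chromosome 11 between the second and the third of them. The peak lists are in hg19 and hold no gene names, so no region below carries one.

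On the 4 chromosomes the lists of the 0 h libraries held 13435 and 14397 peaks, those of the 1 h libraries 12815 and 13581, and those of the 24 h libraries 12223 and 13146. The background pileup of each list gave a relative depth of 10.4 and 8.24 tags per kb for the 0 h libraries, 8.14 and 8.62 for the 1 h libraries, and 7.33 and 7.04 for the 24 h libraries, which were the shallowest. At 24 h depth was below both 0 h values, so it moves with the losses at 24 h described below. At 1 h the depths overlapped with those at 0 h, though the deepest library was a 0 h one. When every list was shortened to the length of the shortest by taking its most significant peaks, 408 regions were lost and 324 gained at 1 h, and 670 lost and 545 gained at 24 h. The share of a whole list on the 4 chromosomes was 11.6% and 11.5% at 1 h and 12.01% and 11.5% at 24 h, against 11.4% and 11.5% at 0 h. The mean was 0.33 percentage points higher at 24 h and 0.127 higher at 1 h than at 0 h. The exact two-sided permutation p was 0.33 for both, the smallest that 2 against 2 libraries can give. Without 24h replicate 1 the difference at 24 h was 0.0741 percentage points, and without 24h replicate 2 it was 0.591. In every library, peaks of these chromosomes were wider for their list: their median width percentile was 56.3 to 57.8, against 49.0 to 49.2 for the other chromosomes.

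A region is called lost when both 0 h libraries held a peak there and neither library of the later time did. It is called gained in the reverse case, and kept with a peak in all 4. A strong peak has a −log10 q of at least 10 (the authors' value from the peak caller), and a strong loss means a peak past that limit in each 0 h library and no peak of any strength later. Over the autosomes and X, 7.48% of regions held at 0 h were lost and 83.8% kept at 1 h, and 3.93% of those held at 1 h were gained. At 24 h these shares were 13.1%, 75.7% and 6.54%. For strong regions the shares lost were 1.51% at 1 h and 4.02% at 24 h, and those gained 0.0338% and 0.748%.

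One hour after the start, 517 of the 11607 regions that both 0 h libraries held on chromosomes 16, 17, 19 and 22 were lost (4.45%), against 7.87% on the other autosomes and X. Another 10306 were kept (88.8%, against 83.1%). Gained regions numbered 297, or 2.65% of those held at 1 h, against 4.10% elsewhere. Among strong regions 35 of 7033 were lost (0.498%, Wilson 95% interval 0.358% to 0.691%, for counting error only), against 1.66% on the other chromosomes. None of the 6848 strong regions at 1 h was gained, against 17 of 43386 (0.0392%) elsewhere, which is too few for a comparison. Strong losses and gains at 1 h were 75 and 5 when presence needed a −log10 q of 5, 49 and 29 with 50% cover, 53 and 13 in 500 bp windows on the summits, 195 and 41 with a strong limit of 5, and 3 and 0 with a limit of 20. The excess of losses over gains at 1 h was not stable. Counting a peak only if it covered 50% of a region gave 492 losses and 576 gains. Leaving out 1h replicate 1 gave 860 losses and 1089 gains, and leaving out 1h replicate 2 gave 958 losses and 920 gains. Leaving out 0h replicate 1 gave 1497 losses and 603 gains, and leaving out 0h replicate 2 gave 1244 losses and 611 gains. Such counts must grow, since fewer libraries have to meet a condition. Strong losses then numbered 79 with 4 strong gains without 0h replicate 1, 76 with 4 without 0h replicate 2, 53 with 10 without 1h replicate 1, and 60 with 2 without 1h replicate 2.

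At 24 h, 942 regions were lost (8.12%, against 13.7% on the other chromosomes), 9614 kept (82.8%, against 74.8%) and 388 gained (3.68% of those held at 24 h, against 6.93%). Strong losses numbered 107, or 1.52% (Wilson 95% interval 1.26% to 1.84%), against 4.40% elsewhere. Strong gains numbered 20, or 0.320%, against 0.816%. These counts moved with the definitions: strong losses and gains were 205 and 51 when presence needed a −log10 q of 5, 260 and 65 with 50% cover, 425 and 143 with a strong limit of 5, and 24 and 0 with a limit of 20. Lists of one length gave 33 strong gains and summit windows 32. Over all regions, both losses and gains were thus rarer on the gene-rich chromosomes at both times. The share lost stayed lower on them under each alternative run, by 2.89 to 4.77 percentage points at 1 h and 4.72 to 9.21 at 24 h, and by 4.40 to 4.68 and 5.97 to 7.70 with any 1 library left out. Counts again grew without a library. Leaving out 0h replicate 1 gave 2014 losses (177 strong) and 641 gains (38 strong), and leaving out 0h replicate 2 gave 1794 losses (193 strong) and 666 gains (37 strong). Leaving out 24h replicate 1 gave 1323 losses (143 strong) and 1272 gains (48 strong), and leaving out 24h replicate 2 gave 1612 losses (183 strong) and 837 gains (43 strong).

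The exact permutation test of 2 against 2 libraries cannot go below p = 0.33, and the difference between chromosomes is given for each pair of libraries. On chromosomes 16, 17, 19 and 22, 17.6% to 21.9% of the regions of a 0 h library had no peak in a 24 h library, against 24.6% to 30.6% on the others. For a 1 h library the shares were 13.7% to 16.4%, against 19.1% to 22.4%. Between replicates of the same time they were 9.53% to 16.03%, against 11.3% to 21.7%, so these chromosomes also differed less between replicates. For strong regions of a 0 h library, 3.14% to 4.20% had none in a 24 h library, against 6.53% to 9.95%. At 1 h this was 1.43% to 1.95%, against 3.30% to 4.50%, and between replicates 0.113% to 0.494%, against 0.181% to 0.783%. All 8 pairings of a 0 h with a later library gave the lower share on the gene-rich chromosomes, but the pairings share libraries and are not independent.

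**Figure D1:**
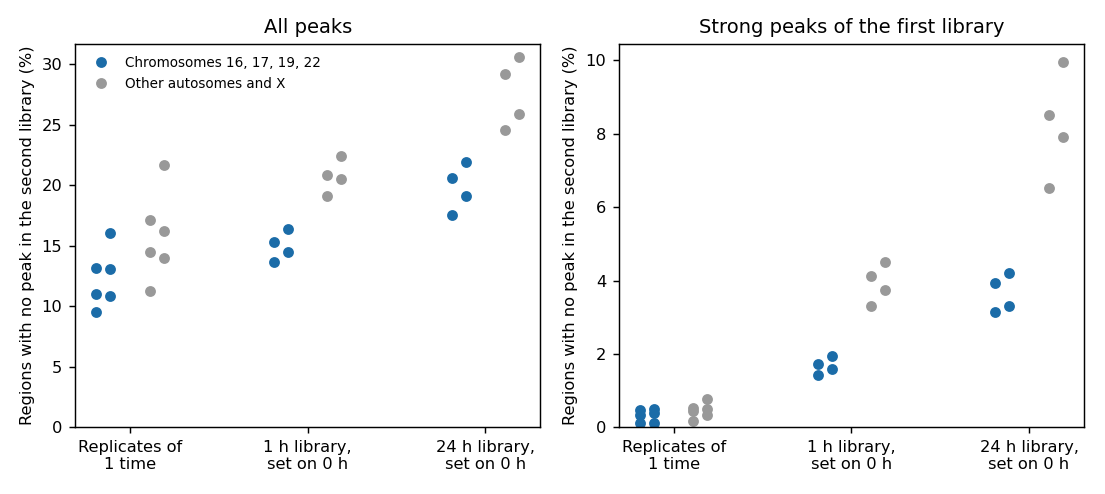
Percentage of regions of 1 library with no peak in a second library, for all peaks (left) and strong peaks of the first library (right). Each point is 1 ordered pair of libraries: replicates of the same time, or a 0 h library set against a 1 h or a 24 h library. For 24 h, the points of chromosomes 16, 17, 19 and 22 lie between 17.6% and 21.9% for all peaks, those of the other chromosomes between 24.6% and 30.6%.

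The 4 chromosomes were not alike. Chromosome 19 lost least, with 3.70% of its 0 h regions at 1 h and 5.87% at 24 h, and chromosome 16 lost most among them, with 5.07% and 9.80%. Chromosome 17 lost 4.64% and 8.98%, and chromosome 22 lost 4.44% and 7.66%. Out of 23 chromosomes, 19, 22, 17 and 16 held ranks 1 to 4 from the lowest share lost at 24 h, and chromosome 20 followed with 10.7%. The share gained at 24 h was 2.81% on chromosome 19, 3.71% on 17, 3.86% on 22 and 4.54% on 16, again the lowest 4 of all. Strong losses at 24 h followed another order, with 22 of 2151 on chromosome 19 (1.02%), 26 of 1721 on 16 (1.51%), 37 of 2144 on 17 (1.73%) and 22 of 1017 on 22 (2.16%). Their Wilson 95% intervals, from 0.676% to 1.54% on chromosome 19 and from 1.43% to 3.25% on 22, overlap, and no order is read from neighbours.

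The lower loss was also seen among regions of like fold. Strength is the percentile of a peak's fold, the authors' ratio of its summit to the local background, within its own list. Regions held at 0 h were put into steps of 10 percentiles by the mean of both 0 h libraries, step 10 holding the strongest. At 24 h, step 2 lost 20.8% on the gene-rich chromosomes against 33.1% elsewhere, step 5 lost 9.80% against 16.7%, and step 8 lost 1.77% against 5.56%. In step 10, 5 of 1409 regions were lost (0.355%), against 2.17%. At 1 h, no region of step 10 was lost, against 0.525% elsewhere, and step 9 lost 0.317% against 1.41%. The share lost was lower than elsewhere in each of the 10 steps at both times. Had each step lost the share seen on the other chromosomes, 13.6% of these regions would have been lost at 24 h in place of 8.12%, and 7.87% at 1 h in place of 4.45%. The steps match fold alone, not −log10 q or width. In the 0 h lists, 60.1% and 55.1% of peaks on the gene-rich chromosomes were strong by −log10 q, against 53.9% and 48.0% elsewhere. Loss among regions of like −log10 q or width was not tested.

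**Figure D2:**
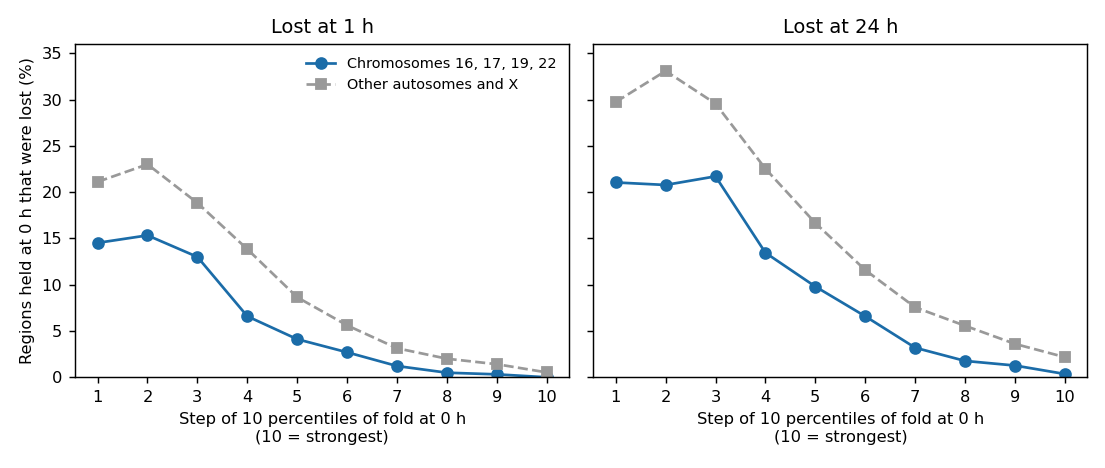
Percentage of regions held by both 0 h libraries that were lost at 1 h (left) and 24 h (right), by step of 10 percentiles of fold at 0 h, for chromosomes 16, 17, 19 and 22 and for the other autosomes and X. The line of the gene-rich chromosomes lies lower in all 10 steps, for example at 9.80% against 16.7% in step 5 at 24 h.

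Lost and gained regions were narrow and low in their lists. The calls rest on the absence of a peak, and weak peaks are missed most easily, so this is partly built in. Between replicates of the same time, 9.53% to 16.03% of the regions on these chromosomes also had no peak in the second library. Regions lost at 24 h were a median of 261 and 190 bp wide in the 0 h lists and stood at a median percentile of 26.8 and 31.2. Regions kept were 554 and 448 bp wide in the same libraries, at percentiles of 64.5 and 68.1. Regions gained at 24 h were 198 and 211 bp wide in the 24 h libraries, at percentiles of 23 and 28.2, while kept regions were 479 and 475 bp wide there, at 61.4 and 66.1. Regions lost at 1 h were narrower and lower still than those lost at 24 h, with 228 and 171 bp and percentiles of 22.2 and 24.6 at 0 h. On the other chromosomes, regions lost at 24 h stood higher, at percentiles of 34.7 and 33.4, and had widths of 280 and 205 bp. Widths depend on the fragment length estimated for each library, so they were compared only within a library.

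**Figure D3:**
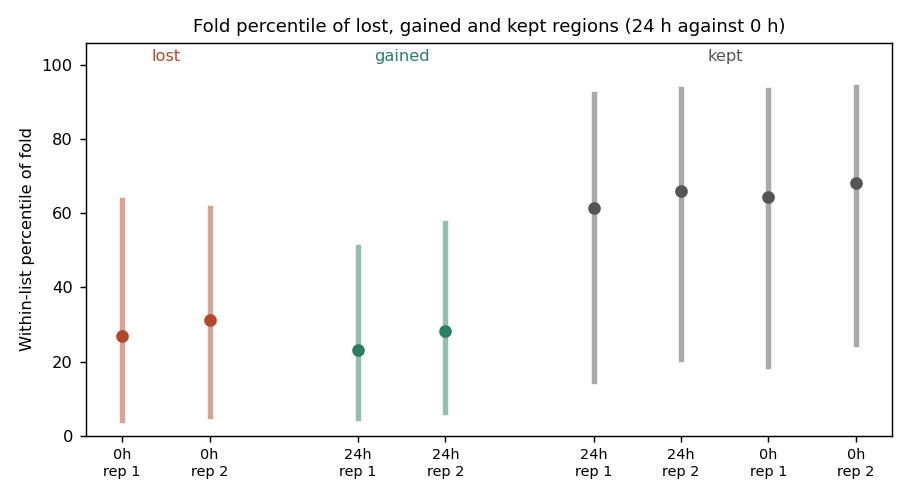
Within-list percentile of fold for regions of chromosomes 16, 17, 19 and 22 lost, gained or kept at 24 h, in each library that holds them. Points are medians and bars run from the 10th to the 90th percentile of regions. Medians of lost and gained regions lie between 23 and 31.2, those of kept regions between 61.4 and 68.1.

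The strongest regions lost at 1 h on chromosome 16 were chr16:28641773-28642415 on the short arm, with folds of 10.8 and 13.5 in the 0 h libraries, and chr16:70037413-70037865 on the long arm, with 13.7 and 10.96. Neither had a peak in any of the 4 later libraries. On chromosome 17, chr17:55449535-55449795 had folds of 10.6 and 13.03 at 0 h, no peak at 1 h, and 6.74 in 24h replicate 1 alone. A peak was thus called again in a single library, and reopening was not tested. The next, chr17:58997511-58998016, had 9.93 and 12.01 at 0 h and no peak later. On chromosome 19, chr19:44198722-44199107 had 8.99 and 11.6 at 0 h and chr19:21534428-21534822 had 9.16 and 7.31, and on chromosome 22, chr22:22402897-22403675 had 9.39 and 10.5 and chr22:38583402-38583832 had 8.12 and 8.19. These 4 had no later peak either. Of the 8, those on chromosomes 16 and 17 reached mean 0 h percentiles of 83.1 to 88.2, and those on 19 and 22 of 65.8 to 79.2.

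The strongest regions lost at 24 h often had weaker peaks at 1 h. On the short arm of chromosome 17, chr17:20868852-20869153 had folds of 14.8 and 15.1 at 0 h, 5.46 in 1 of the 1 h libraries and no peak at 24 h. Also there, chr17:2529887-2530600 had 14.4 and 11.7 at 0 h, then 3.75 and 7.99 at 1 h, and none at 24 h. Its −log10 q was 49.3 and 24.5 at 0 h and 2.90 and 12.7 at 1 h. On chromosome 16, chr16:64512055-64512907 had folds of 12.3 and 11.9 at 0 h and 4.58 and 6.31 at 1 h, while the second was chr16:28641773-28642415, described above. On chromosome 19, chr19:23688490-23689037 had 13.5 and 12.5 at 0 h and 4.58 and 4.62 at 1 h, and chr19:45713906-45714505 had 10.7 and 14.1 and then 4.20 and 5.34. On chromosome 22, chr22:24456885-24457251 had 13.3 and 13.7 at 0 h and 3.33 in 1h replicate 1 alone, and chr22:20346181-20346516 had 11.8 and 12.5 and then 5.92 in the same library. At 1 h, 4 of these 8 regions still had peaks in both libraries, 3 in a single library and 1 in none, and all 1 h folds were below both 0 h folds of the same region. They were picked for high 0 h percentiles and no peak at 24 h, so lower 1 h folds are partly built in. The libraries also differed in depth.

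Gained regions were weaker. The strongest at 24 h was chr16:12844790-12845234, with folds of 12.03 and 9.99 at 24 h and 6.25 and 5.89 at 1 h, and no peak at 0 h. On the long arm of chromosome 17, chr17:61289391-61289748 had 11.1 and 10.7 at 24 h and no peak in the other 4 libraries, so its peak was called at 24 h alone. Its neighbour in rank, chr17:26531963-26532286, had folds of 10.6 and 9.70 at 24 h, while those at 1 h were 5.42 and 4.62. The second of chromosome 16, chr16:73116516-73116830, had 9.63 and 8.17 at 24 h and 6.25 and 5.89 at 1 h. On chromosome 22, chr22:44360292-44360679 had 8.18 and 9.20 at 24 h and 4.58 and 7.15 at 1 h, and chr22:28736970-28737379 had 8.66 and 6.64 at 24 h with no peak before. On chromosome 19, chr19:28891924-28892462 had 8.68 and 8.47 at 24 h and 5.19 and 4.67 at 1 h, and chr19:189681-190028, close to the start of the chromosome, had 7.70 and 6.13 and before that 4.17 and 5.46. The 24 h folds exceeded the 1 h folds of the same region in all 6 of these that had peaks at 1 h. As the regions were picked for high 24 h percentiles, this order is partly built in.

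At 1 h the strongest gains stood near the middle of their lists, at mean 1 h percentiles of 42.4 to 57.7. The leading ones were chr16:72809576-72809896, with folds of 5.83 and 7.99 at 1 h, chr17:71701853-71702186 with 6.67 and 4.76, chr19:44319084-44319563 with 7.499 and 5.46, and chr22:40595331-40595580 with 4.78 and 7.45. In the first of these only 24h replicate 1 held a peak at 24 h (5.30), and in the third only 24h replicate 2 (5.62). Those on chromosomes 17 and 22 had peaks in both 24 h libraries, with folds of 6.74 and 7.15, and of 7.04 and 7.20. The runners-up were chr16:71718267-71718468 (6.67 and 6.31 at 1 h), chr17:46335815-46336232 (4.58 and 6.73), chr19:39430655-39431030 (6.67 and 5.89) and chr22:44360292-44360679, which was also among the gains at 24 h. None of the 1 h folds of these regions passed 8.

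Along the chromosomes, losses were spread over both arms. Arms were split at the longest stretch without a peak in any list, which lay at chr16:35284211-46386420, chr17:22261682-25263177 and chr19:24629147-27731882. Each was at least 3.0 Mb long, while the next longest stretch on these chromosomes was 0.376 Mb, and chromosome 22, an acrocentric, had regions on its long arm only. At 24 h the long arm of chromosome 16 lost 169 of 1578 regions (10.7%) and its short arm 123 of 1403 (8.77%). The long arm of chromosome 17 lost 9.33% and its short arm 7.96%. On chromosome 19 the long arm lost 6.11% and the short arm 5.57%. At 1 h the order of the arms was the same, with 5.64% and 4.42% on chromosome 16, 4.79% and 4.20% on 17, and 3.98% and 3.36% on 19. Among strong regions the order turned on chromosome 17, where the short arm lost 15 of 553 at 24 h (2.71%) and the long arm 22 of 1591 (1.38%). All these arms stayed below the 13.7% lost on the other chromosomes.

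Distance from the peak-free stretch gave no common course. On the long arm of chromosome 16, the first 10 Mb lost 13.9% at 24 h and gained 5.83%, and the segment from 40 to 50 Mb lost 7.79% and gained 2.43%. The long arm of chromosome 19 lost 8.97% in its first 10 Mb, 6.59% from 10 to 20 Mb, 4.58% from 20 to 30 Mb, and none of 77 regions beyond. On the long arm of chromosome 17, the 6 segments of 10 Mb lost 7.95% to 10.8% with no such order. The short arm of chromosome 16 lost most from 10 to 20 Mb, with 11.6%, and its distal segment from 30 to 40 Mb least, with 6.72%. On chromosome 22, the segment from 10 to 20 Mb past the first region lost 10.9% and the others 6.37% to 7.42%.

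Of the 255 windows of 1 Mb that held a region, 213 had at least 20 regions held by both 0 h libraries. In 157 of these losses outnumbered gains at 24 h, in 27 gains outnumbered losses, and in 29 they were equal. Over the 1988 such windows elsewhere these numbers were 1585, 219 and 184. No loss was seen in 7 windows (23 elsewhere) and no gain in 45 (327 elsewhere). The median window lost 7.41%, against 12.8% elsewhere. Over 20% was lost in 11 windows (7 on chromosome 16, 3 on 17 and 1 on 22), and in 397 elsewhere. The highest number lost in a window was 12, against 17 elsewhere. A strong loss lay in 75 windows, and in 1084 elsewhere. Across the 213 windows, the share lost and the number of regions held at 0 h had a Spearman's rho of −0.31 and a Pearson's r of −0.36. Elsewhere these were close, at −0.33 and −0.35. Both describe windows read from the same libraries.

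**Figure D4:**
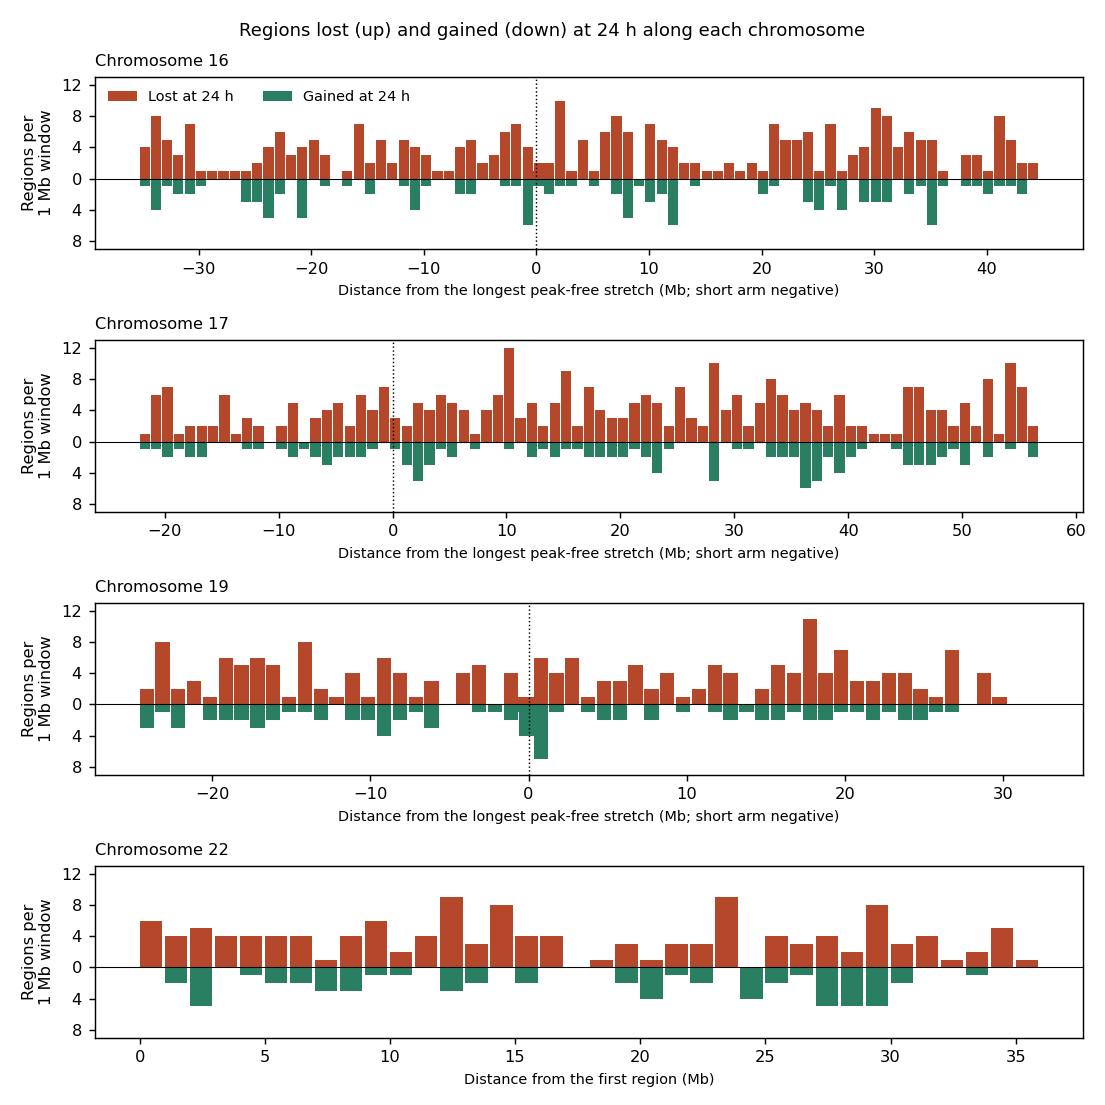
Number of regions lost (bars up) and gained (bars down) at 24 h in each 1 Mb window of chromosomes 16, 17, 19 and 22. The x axis gives the distance in Mb from the edges of the longest stretch without a peak (dotted line; short arm negative), or from the first region for chromosome 22. No window lost more than 12 or gained more than 7 regions.

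The windows with the highest share lost lay mostly where regions were few. On chromosome 16, chr16:76000001-77000000 lost 9 of 27 regions at 24 h (33.3%, Wilson 95% interval 18.6% to 52.2%) and 7 at 1 h, and chr16:52000001-53000000 lost 6 of 20. On chromosome 17, chr17:35000001-36000000 lost 12 of 47 (25.5%, 15.3% to 39.5%) and 8 at 1 h, and chr17:53000001-54000000 lost 10 of 46 and gained 5. On chromosome 19, chr19:29000001-30000000 lost 4 of 21 (19.05%, 7.67% to 40%) and the neighbouring chr19:28000001-29000000 lost 6 of 36, both on the long arm within its first 10 Mb. On chromosome 22, chr22:28000001-29000000 lost 9 of 35 (25.7%, 14.2% to 42.1%), 4 of them strong, and chr22:16000001-17000000 lost 6 of 36. These windows were picked as the highest of each chromosome, and their intervals are wide. Those of both chromosome 19 windows and of chr22:16000001-17000000 include the 8.12% lost over the 4 chromosomes. The place with the highest share depended on the windows and libraries used. Windows of 2 Mb put another place first on chromosome 17, with 10 of 25 regions lost (40%), on chromosome 19, with 9 of 47, and on chromosome 22, with 6 of 38, and a shift by 500 kb did so on chromosome 17, with 6 of 22. Leaving out a library put another window first at least once on each of the 4 chromosomes. Without 0h replicate 1, 0h replicate 2 or 24h replicate 2, the highest share on chromosome 19 was 39.4%, 38.1% and 33.3%, and without 24h replicate 2 that on chromosome 22 was 40%.

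The lost regions inside these windows can be read one by one. In chr16:76000001-77000000 they had 0 h folds of 3.71 to 8.78 in one library and 4.23 to 11.1 in the other, and 6 of the 9 had no peak at 1 h. The widest and strongest of them, chr16:76753021-76754067, had folds of 7.95 and 11.1 at 0 h and kept weak peaks in both 1 h libraries. Another of the 9, chr16:76752257-76753014, ended only a few bp before it, so these neighbours may not be separate losses. In chr17:35000001-36000000 the 12 regions were 201 to 505 bp long, with 0 h folds of 3.53 to 9.92 and 3.50 to 8.19, and none was strong in both. In chr22:28000001-29000000 losses fell into 2 places, 5 regions between 28050645 and 28361932 and 4 between 28815000 and 28967289. The strongest, chr22:28820521-28821110, had folds of 13.9 and 10.2 at 0 h.

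Windows with the most gains were mostly not those with the highest share lost. In chr16:34000001-35000000, the last full window before the peak-free stretch, 6 regions were gained and 4 lost at 24 h, and in chr19:28000001-29000000 7 were gained and 6 lost. The windows chr16:58000001-59000000 (6 gained, 4 lost) and chr16:81000001-82000000 (6 gained, 5 lost) equalled the first of these in gains. Next on chromosome 19 came chr19:24000001-25000000 (4 gained, 1 lost) and chr19:15000001-16000000 (4 gained, 6 lost). On chromosome 17 the most gains were in chr17:61000001-62000000, with 6 gained and 5 lost. Behind it 3 windows gained 5 each, namely chr17:27000001-28000000, chr17:53000001-54000000 and chr17:62000001-63000000, and lost 5, 10 and 4. On chromosome 22, 4 windows tied with 5 gained each: chr22:18000001-19000000, chr22:43000001-44000000, chr22:44000001-45000000 and chr22:45000001-46000000, which lost 5, 4, 2 and 8.

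Up to 60 to 79 regions a window, the share lost was lower in denser windows, on these chromosomes and elsewhere. In windows with under 20 regions held at 0 h, 12.5% were lost at 24 h, against 20.04% on the other chromosomes. The shares were 11.2% against 15.7% in windows with 20 to 39, 8.47% against 12.2% with 40 to 59, and 5.93% against 9.46% with 60 to 79. In windows with 80 or more, 110 of 1578 regions were lost (6.97%), against 175 of 2670 (6.55%), so on the gene-rich chromosomes the share was no lower than in the class before it, nor than on the others. Gains in that class were 1.89% against 2.87%, and strong losses 1.24% (13 of 1047) against 1.73% (30 of 1731).

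**Figure D5:**
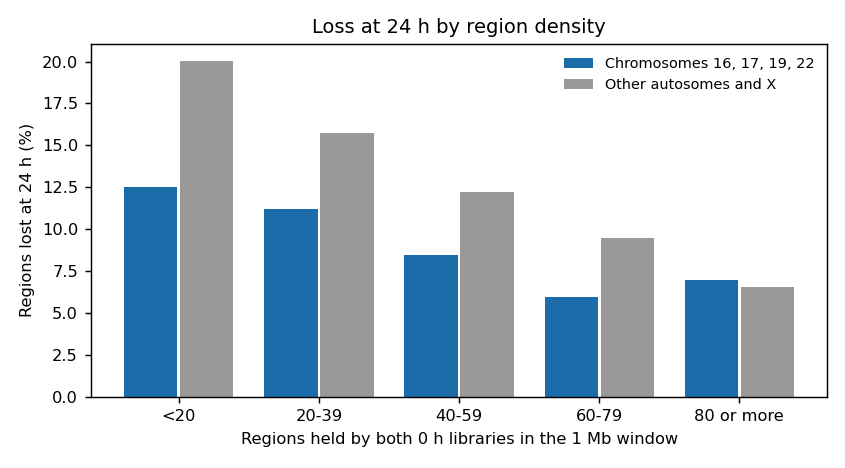
Percentage of regions held by both 0 h libraries that were lost at 24 h, in 1 Mb windows grouped by how many such regions they hold, on chromosomes 16, 17, 19 and 22 and on the other autosomes and X. The bars of the gene-rich chromosomes are the lower ones up to 60-79 regions (5.93% against 9.46%), but not in windows with 80 or more (6.97% against 6.55%).

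Most lost regions had no other lost region within 10 kb. On the 4 chromosomes the median distance from a region lost at 24 h to the next lost one was 79.2 kb, and 107 of the 942 (11.4%) had another within 10 kb, against 13.7% elsewhere. The median distance to a kept region was 7.81 kb, against 12.8 kb elsewhere. A kept region lay within 10 kb of 58.0% of the lost ones, against 42.9% elsewhere. On chromosome 19 67.2% of lost regions had a kept one that near, on chromosome 16 50.3%. These distances also follow the density of regions. Kept regions (9614) far outnumbered lost ones (942), so the shares with a kept and with a lost neighbour cannot be compared directly.

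Over all kept regions, fewer changed rank than elsewhere, but not in every step of strength. At 24 h, 1508 of the 9614 kept regions had both 24 h percentiles of fold below both 0 h percentiles by a mean of at least 10 points (15.7%, against 19.6% on the other chromosomes), and 787 were higher by that rule (8.19%, against 13.1%). Split by 0 h strength, the share that was lower exceeded that of the other chromosomes in steps 2 (6.01% against 3.95%), 3 (9.54% against 8.51%) and 4 (16.8% against 13.6%). It was below theirs in steps 5 to 10, for example 10.3% against 17.9% in step 10. Over the autosomes and X the rule called 19.1% lower and 12.5% higher at 24 h. At 1 h it called 14.7% and 12.4%, and on the gene-rich chromosomes 1120 of 10306 (10.9%) lower and 993 (9.64%) higher. The median percentile of kept regions was 61.4 and 66.1 at 24 h, against 64.5 and 68.1 at 0 h, so the libraries of the 2 times overlapped (exact two-sided permutation p = 0.667). The median change per region of −1.23 points was close to the −1.11 elsewhere, but the steps of 0 h strength differed. It was below that elsewhere in steps 1 to 7, for example 2.10 against 7.52 points in step 2. In steps 8 to 10 it was above, for example −0.737 against −1.30 in step 10. The median over all kept regions depended on single libraries, with 0.21 without 24h replicate 1, −2.88 without 24h replicate 2, −2.52 without 0h replicate 1 and −0.09 without 0h replicate 2.

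Single kept regions show how far such changes went, chosen after their values were seen as the largest on each chromosome. The region chr19:51710359-51711387 had folds of 11.7 and 13.4 at 0 h, then 4.33 and 5.28 at 1 h, then 3.90 and 3.58 at 24 h. On chromosome 16, chr16:80231676-80232929 had 12.1 and 11.5, then 5.93 and 5.88, then 4.81 and 3.58. Both were lower in each 1 h library than in each 0 h library and lower again at 24 h. In the other direction, chr17:57813042-57813718 had 4.58 and 3.65 at 0 h, then 11.1 and 9.49 at 1 h, then 9.47 and 11.98 at 24 h. It was high from 1 h on, whereas chr16:67628640-67629261, with 4.20 and 4.18, then 5.00 and 7.15, then 10.3 and 12.4, was higher at each time. Chromosome 22 had chr22:23809996-23810517 on the falling side, with 14.3 and 16.1 at 0 h, 6.59 in 1h replicate 1 alone, and 5.30 and 4.60 at 24 h, and chr22:35105550-35106009 on the rising one, with 4.20 and 4.70, then 5.42 and 7.57, then 11.1 and 9.71.

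A peak was present in all 6 libraries in 9336 of the 17629 regions (53.0%), against 42.2% elsewhere, and the share was 59.7% on chromosome 19, 52.9% on 17, 51.0% on 22 and 47.7% on 16. The strongest of them on each chromosome had high folds at every time. On chromosome 17, chr17:33478010-33478411 had folds of 26.4 and 30.8 at 0 h, then 25.8 and 26.4 at 1 h, then 28.8 and 30.4 at 24 h. On chromosome 19, chr19:36066394-36066857 had 26.0 and 30.0, then 23.7 and 26.7, then 27.7 and 26.5. Those of chromosomes 16 and 22, chr16:33887554-33887947 and chr22:18717774-18718280, had folds of 23.03 to 28.2 and 19.4 to 23.5 over the 6 libraries. All 4 were in the top 1% of each list. They were picked as the strongest among regions with a peak in all 6 libraries, so high values at every time are partly built in.

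The widest kept regions were of middling fold. Their spans join the peaks of all 6 lists, and the width of the highest-fold peak varied between libraries. It was 1041 to 2110 bp for the region on chromosome 16, 1051 to 2893 bp on 19 and 1574 to 1793 bp on 17. On chromosome 16 chr16:54962405-54965304 spanned 2900 bp, with folds of 5.82 to 6.54 over the 6 libraries. On chromosome 19 chr19:10399409-10402302 spanned 2894 bp, with 4.94 to 6.09. On chromosome 17 chr17:27893863-27896542 spanned 2680 bp, with 5.43 to 6.74. On chromosome 22 chr22:21056349-21058840 spanned 2492 bp, with 6.04 to 7.66, and a single peak of 2262 to 2492 bp covered most of it in every library.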

How the data were processed

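ATAC-seq of 22Rv1 cells was deposited as 1 peak list per library. MACS2, Bowtie2, fastp, FastQC and the build hg19 are named in the deposited labels' processing notes by the submitters. Versions, read shifting and duplicate removal are not given in the sources used here. Each peak's fold (a ratio), −log10 p, −log10 q and score (a whole number that follows −log10 q) are the authors' deposited values. The lowest −log10 q was 1.30 to 1.32 in every list. Replicates were not pooled.

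Lists were joined at 1 bp overlap over the 22 autosomes and X with Python 3.11.15, numpy 2.4.6, pandas 2.3.3 and scipy 1.17.1. Percentiles were taken within each list, from the highest-fold peak of a region in a library. Relative depth is the most frequent background pileup, recovered from fold and −log10 p with a pseudocount of 1, over the shortest peak, and 100.0% of peaks matched a whole-number pileup within 0.001. The lists hold no counts, so no model across regions was fitted. Windows took regions by midpoint. The calling was tested on simulated lists. Named regions are, for each chromosome, time and direction, the 2 with the highest mean percentile over the 2 libraries of the time that defines the call (0 h for lost regions, the later time for gained ones), plus the strongest and the widest in all 6 libraries, and named windows the 2 with the highest share lost and the 2 with the most gains at 24 h (windows tied with them are named too), among those with at least 20 regions. The members and rules were chosen with earlier results of these data known. Sequences, gene names, promoters and marker genes need a genome of the hg19 build, not used here, and the label of the cells was therefore not checked against markers. P-values measure only the spread between libraries, which may be technical.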

Additional observations from a re-analysis of the deposited data

How the results depend on the processing

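Counts of lost and gained regions on chromosomes 16, 17, 19 and 22 moved by under 1.5 times when presence needed a −log10 q of 5, when lists had one length, and in 500 bp summit windows. With 50% cover the same held except for gains at 1 h (576). Strong losses at 1 h were 75 under the −log10 q setting, 53 in summit windows, and 195 and 3 with strong limits of 5 and 20. Strong gains at 1 h were 5, 1, 29 and 13 under −log10 q of 5, lists of one length, 50% cover and summit windows, and 41 with a strong limit of 5. At 24 h strong losses were 205 and 260 under −log10 q of 5 and 50% cover, and 425 and 24 with strong limits of 5 and 20. Strong gains were 51, 33, 65 and 32 under the first 4 settings in that order, and 143 and 0 with limits of 5 and 20. With any 1 library left out, lost regions numbered 860 to 1497 at 1 h and 1323 to 2014 at 24 h, gained ones 603 to 1089 and 641 to 1272, strong losses 53 to 79 and 143 to 193, and strong gains 2 to 10 and 37 to 48. These rise because fewer libraries must meet a condition.

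The share lost on the 4 chromosomes minus that elsewhere, −3.42 percentage points at 1 h and −5.63 at 24 h, was −4.05, −2.89 and −4.77 at 1 h under −log10 q of 5, lists of one length and 50% cover, and −9.21 at 24 h under 50% cover. Without 1 library it was −4.68 to −4.40 and −7.70 to −5.97. The same difference in gains, −1.45 and −3.25, was −2.38 and −2.99 at 1 h and −4.47 and −5.72 at 24 h under lists of one length and 50% cover, and −3.08 to −2.38 and −5.27 to −3.93 without 1 library. The cause of these moves was not tested.

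The share of each list on these chromosomes was higher than at 0 h under every setting run, by 0.0665 to 0.187 percentage points at 1 h and 0.0741 to 0.591 at 24 h without 1 library (an omission chosen after seeing the data), and by 0.517 and 0.589 among peaks with a −log10 q of at least 10. With the replicate block the differences were 0.127 and 0.33, with an exact permutation p of 0.50, the smallest that 2 pairs allow. The change in percentile of kept regions was −1.23 with the replicate block as well, −1.65 by −log10 q, and −2.88 to 0.21 without 1 library, turning to 0.21 without 24h replicate 1. The labels do not say what a replicate number stands for. The highest window share on chromosome 17 was 40% in 2 Mb windows. Without 1 library, the highest share ran from 34.4% to 48.1% on chromosome 16, 30.8% to 33.3% on 17, 25% to 39.4% on 19 and 27.8% to 40% on 22. Relative depth was lowest at 24 h. Lists of one length even out the number of peaks but not the depth, so the effect of depth was not tested.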
